A study of Mus musculus with 18 samples.

Results

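The set described here is 10 genes that govern how readily membrane phospholipids can be oxidized during ferroptosis, the iron-dependent cell death that follows lipid peroxidation. They were chosen by gene name, for their role. Acsl3 and Acsl4 encode enzymes that activate fatty acids by joining them to coenzyme A. Lpcat3, Agpat3, Mboat1 and Mboat2 encode acyltransferases that place an acyl chain on a lysophospholipid, Agps, Gnpat and Far1 encode enzymes of ether lipid synthesis, and Por encodes cytochrome P450 oxidoreductase. Each gene name occurred in 1 of the 55487 rows of the count table, and all 10 were among the 15381 genes with enough counts to be tested.

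RNA was sequenced from mouse embryonic fibroblasts (MEFs) of the genotype WT in 6 groups of 3 libraries. Scm is complete medium made with S-FBS, a fetal bovine serum in which MEFs readily undergo ferroptosis, and Rcm is the same medium made with R-FBS, a serum in which they resist it. The groups named Scm and Rcm stayed in their medium. The groups named R-Scm were exchanged from Rcm into Scm and those named S-Rcm from Scm into Rcm, with harvest at 12 h or at 24 h. All groups are 1 type of cultured cell without a ferroptosis inducer named in the labels, each medium holds 1 serum product, and no group was exchanged into fresh medium of its own serum. The labels do not say whether the 3 libraries of a group came from separate cultures, so p-values measure only the spread between these libraries, which may be technical. The cultures in Scm and Rcm had no exchange, so the exchange itself and the new serum cannot be told apart in a comparison with them.

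Phospholipids with polyunsaturated acyl chains are the substrate of the peroxidation that kills cells in ferroptosis. ACSL4 prefers long polyunsaturated fatty acids and LPCAT3 inserts the activated chains into phospholipids, a pair known for promoting ferroptosis. ACSL3 activates monounsaturated fatty acids among others, and MBOAT1 and MBOAT2 transfer monounsaturated chains, activities known for opposing it. GNPAT and AGPS start the ether lipid backbone in peroxisomes and FAR1 supplies their fatty alcohols, AGPAT3 contributes to polyunsaturated ether phospholipids, and POR passes electrons from NADPH to acceptors at the endoplasmic reticulum. Changes in messenger RNA do not measure the activity of these enzymes or the lipids they make.

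The sequences upstream of 3 members are shown because Acsl3 and Lpcat3 had an adjusted p under 0.05 between Rcm and Scm and Acsl4 did not. They are RefSeq sequence on GRCm38.p6, read 5′ to 3′ on the strand of the gene up to the base before the annotated start. For Acsl3 and Acsl4 this is the RefSeq start. For Lpcat3 it is the earlier start in GENCODE M21, so that window ends 77 bases before the RefSeq start and the matches found within those bases are not shown. Capitals mark CCAAT boxes (CCAAT) and GC boxes (GGGCGG), read on either strand, and neighbouring or overlapping matches run together. The windows are chr1:78657575-78657824 on the plus strand for Acsl3, chr6:124662854-124663026 on the plus strand for Lpcat3 and chrX:142390536-142390785 on the minus strand for Acsl4.
Acsl3: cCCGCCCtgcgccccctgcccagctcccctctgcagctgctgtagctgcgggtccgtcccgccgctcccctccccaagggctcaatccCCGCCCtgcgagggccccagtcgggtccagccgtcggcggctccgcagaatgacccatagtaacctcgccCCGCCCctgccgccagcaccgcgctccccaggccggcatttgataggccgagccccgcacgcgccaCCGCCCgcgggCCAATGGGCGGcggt
Lpcat3: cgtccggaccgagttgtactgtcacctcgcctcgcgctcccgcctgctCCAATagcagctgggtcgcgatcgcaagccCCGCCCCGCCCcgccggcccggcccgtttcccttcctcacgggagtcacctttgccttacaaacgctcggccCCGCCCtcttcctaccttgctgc
Acsl4: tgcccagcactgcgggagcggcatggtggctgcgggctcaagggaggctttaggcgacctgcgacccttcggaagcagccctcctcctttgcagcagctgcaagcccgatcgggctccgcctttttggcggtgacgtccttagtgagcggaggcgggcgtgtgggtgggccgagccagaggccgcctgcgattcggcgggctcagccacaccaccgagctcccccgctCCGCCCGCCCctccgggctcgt

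Promoters of all 10 members were searched on both strands from 250 bases before to 50 bases after the RefSeq start. A GC box was found in 9 members, against 35.7% of 32851 promoters of the same length, and a CCAAT box in 6, against 37.4%. These promoters were not limited to the genes tested here, so a trait of tested genes cannot be told from one of these members. The E-box CACGTG was found in the promoter of Gnpat alone, against 7.15% of all promoters. The sterol regulatory element TCACNCCAC matched 0 members and 1.24% of all promoters, which says only that these letters are not in these windows. Acsl3 had 1 CCAAT box at 15 bases and 5 GC boxes at 10 to 249 bases before its start, whereas Acsl4 had no CCAAT box and 2 overlapping GC boxes at 18 and 22 bases before its start. The other members without an adjusted p under 0.05 between Rcm and Scm went either way. Far1 had 3 CCAAT and 4 GC boxes, Mboat2 had 2 and 6, and Agps and Mboat1 also had both kinds. Gnpat and Por had a GC box but no CCAAT box, and Agpat3 had neither. A link between these boxes and the levels was not tested.

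The primers that the study used for RT-qPCR of both acyl-CoA synthetases are shown because they define which transcripts its second assay reads.
Acsl3 forward: GGGACTACAATACCGGCAGA
Acsl3 reverse: ATAGCCACCTTCCTCCCAGT
Acsl4 forward: TCCTCCAAGTAGACCAACCCC
Acsl4 reverse: AGTCCAGGGATACGTTCACAC
The capitals are the whole primers. Both Acsl3 primers matched 4 of 7 transcripts annotated in GENCODE M21, with a product of 80 bases whose reverse primer crosses an exon junction. The Acsl4 primers matched 4 of 5 transcripts with a product of 141 bases within exon 7. RNA-seq counts add the reads over all transcripts of a gene, so the assays do not read the same set of transcripts.

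Levels are stated in CPM, reads of a gene relative to the TMM-normalized size of the library. Total counts ran from 14534906 to 20313715, and replicates differed by more than counting error (from 9.61 to 42.7 in chi-square per degree of freedom). The nearest library was of the same group for 14 of 18 libraries, the others being Rcm replicate 3, S-Rcm 12 h replicate 1 and R-Scm 24 h replicates 1 and 3. Summed levels of 8 fibroblast markers ran from 7642 to 12169 CPM, whereas those of 4 epithelial, 2 endothelial and 3 adipocyte markers reached at most 1.47, 1.29 and 0.12 CPM. Of 3 immune markers, Ptprc and Adgre1 had at most 3 and 0 counts, and Cd68 lay between 2.02 and 4.90 CPM. No batch or date is given in the labels, so no comparison within batches was possible. In bulk RNA, fewer cells with a transcript and less RNA per cell cannot be told apart.

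A gene was called a differentially expressed gene (DEG) when its log2 fold change exceeded 0.58 in either direction and its p, adjusted over all tested genes by the Benjamini-Hochberg method, was under 0.05 in edgeR's quasi-likelihood test of the 18 libraries. Across all 10 members, 1 DEG was observed between Rcm and Scm (2.3% of all genes tested), and 1 at 12 h after the exchange from Rcm to Scm (2.74%). Both calls were Acsl3. No member was a DEG in R-Scm 24 h against Rcm (0.377%), in S-Rcm 12 h against Scm (0.858%) or in S-Rcm 24 h against Scm (0.338%), and DESeq2 also called 0 members in these 3. The members with an unadjusted p under 0.05 numbered 3 between Rcm and Scm (16.2% of all genes), 4 in R-Scm 12 h against Rcm (17.6%) and 2 in R-Scm 24 h against Rcm (10.3%). They numbered 2 in S-Rcm against Scm at either time (14.3% and then 8.11%). The median log2 fold change of the members was 0.16, -0.18, -0.11, 0.029 and 0.12 in these 5 comparisons in the order given, against 0.012, -0.0077, -0.0013, 0.019 and 0.0061 for all genes. These medians depended on the setting, and a shift of the members as a set was not tested. Without Rcm replicate 2, the median in R-Scm 12 h against Rcm was -0.038. With a replicate block by the numbers of the count columns it was -0.051, and the median in R-Scm 24 h against Rcm was 0.012.

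**Figure D1:**
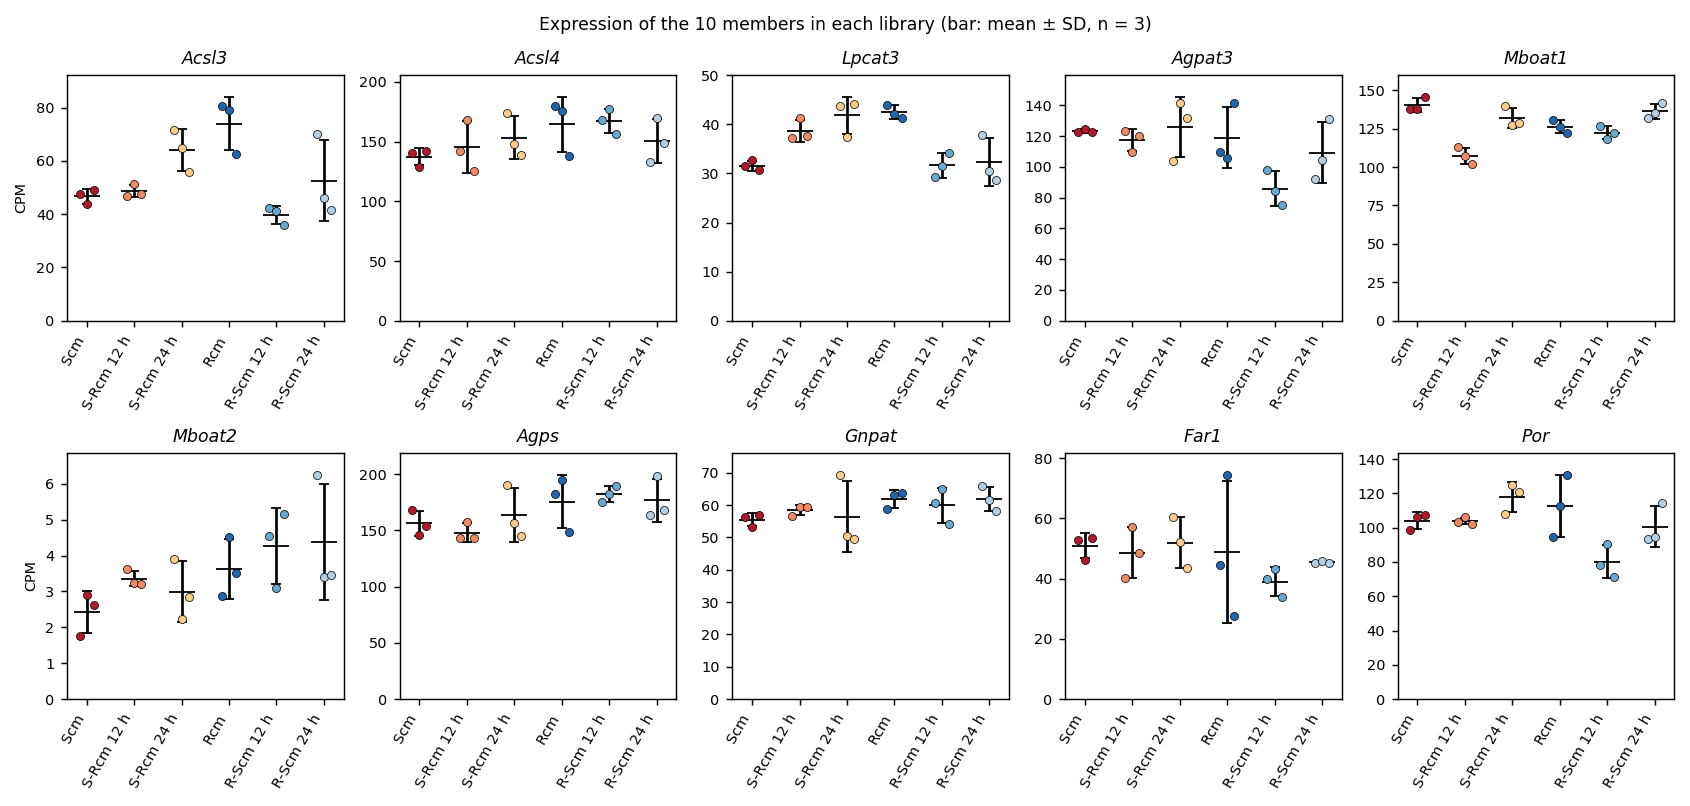
Expression of the 10 members in CPM (vertical axes, from 0) in each library of the 6 groups (horizontal axes). Points are libraries and black bars are the mean ± SD of 3 libraries. Acsl3 lay between 62.4 and 80.5 CPM in Rcm and between 36.0 and 42.3 CPM in R-Scm 12 h, whereas Acsl4 stayed between 126 and 180 CPM in all libraries.

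Acsl3 (ENSMUSG00000032883, GRCm38 chr1:78657825-78707743, plus strand) was the member with both DEG calls. Its level was 47.4, 43.6 and 48.9 CPM in Scm and 80.5, 79.0 and 62.4 CPM in Rcm. Each Rcm library lay above each Scm library, with the lowest Rcm value in replicate 3. The difference was a log2 fold change of 0.66 (SE 0.16, adjusted p = 0.0321), or 1.59-fold. The call held in 1 of 6 fits with a library left out, without Rcm replicate 3 (adjusted p = 0.0218), and was lost without any of the other 5 libraries, with adjusted p from 0.0864 to 0.142 and log2 fold changes from 0.60 to 0.70.

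After the exchange into Scm, Acsl3 was 42.3, 41.1 and 36.0 CPM at 12 h. All 3 values were below those of the Scm cultures as well as those of Rcm. Against Rcm, Acsl3 fell by 0.89 on the log2 scale (SE 0.16, adjusted p = 0.00384), and this call held in 6 of 6 fits with a library left out. Against Scm, the serum shared by both groups, the log2 fold change was -0.23 (adjusted p = 0.389).

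At 24 h in Scm, Acsl3 was 70.2, 46.0 and 41.7 CPM. Replicate 1 lay within the range of Rcm and the other replicates lay below it. The log2 fold change against Rcm was -0.49 (SE 0.16, adjusted p = 0.226). Without replicate 1 it was -0.75 (adjusted p = 0.00307), which met both thresholds of a DEG. The other 5 of 6 fits with a library left out gave no call, with log2 fold changes as weak as -0.33 and adjusted p up to 0.641.

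In the opposite exchange, Acsl3 was 46.9, 51.2 and 47.7 CPM at 12 h and 71.6, 64.9 and 55.9 CPM at 24 h. The 12 h libraries overlapped those of Scm, whereas each 24 h library was above them. The log2 fold change against Scm was 0.06 (adjusted p = 0.918) at 12 h and 0.46 (adjusted p = 0.355) at 24 h, with neither passing the test. The 24 h value against Rcm was -0.21, with a 95% interval of -0.54 to 0.13.

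The mean level of Acsl3 was highest in Rcm (74.0 ± 10.02 CPM, SD, n = 3) and then followed S-Rcm 24 h (64.1 ± 7.85), R-Scm 24 h (52.6 ± 15.3), S-Rcm 12 h (48.6 ± 2.30), Scm (46.6 ± 2.70) and R-Scm 12 h (39.8 ± 3.31). Neighbours in this order overlapped in their libraries except Scm and R-Scm 12 h. GENCODE M21 places 244 exon bases of Utp14b on the same strand within exons of Acsl3, 5.6% of its exon length, and how the authors' counting assigned such reads is not given in the sources used here.

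Acsl4 (ENSMUSG00000031278, chrX:142317993-142390535, minus strand) was expressed at 141, 129 and 142 CPM in Scm and at 179.7, 176 and 138 CPM in Rcm. Rcm replicate 3 lay within the range of Scm and the other Rcm libraries above it. This was a log2 fold change of 0.26 (SE 0.13, adjusted p = 0.322), with a 95% interval of -0.0084 to 0.53. In R-Scm 12 h it was 168, 177 and 157 CPM, or 0.02 on the log2 scale against Rcm (adjusted p = 0.951), with a 95% interval of -0.24 to 0.29. It was 133, 169.8 and 149 CPM in R-Scm 24 h. The exchange into Rcm gave 142, 168 and 126 CPM at 12 h and 174, 148 and 139 CPM at 24 h. These last 3 groups overlapped the groups they had left, with log2 fold changes of -0.13, 0.08 and 0.16 and adjusted p from 0.802 to 0.846.

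The ratio of both synthetases within a library is given as a description and was not tested. It varied little between the libraries of Scm or of Rcm, whereas its mean differed between groups. The log2 ratio of Acsl3 to Acsl4 was -1.55 ± 0.016 (SD, n = 3) in Scm and -1.15 ± 0.0067 in Rcm. It was -2.07 ± 0.072 in R-Scm 12 h, and ran from -1.88 to -0.92 in R-Scm 24 h, the widest range of the 6 groups. The exchange into Rcm gave -1.57 ± 0.16 at 12 h and -1.26 ± 0.064 at 24 h. Per kilobase of exon, a scale on which genes may be compared, Acsl4 was the higher of the pair in all 6 groups, at 30.4 against 17.0 CPM per kilobase in Rcm and 25.4 against 10.7 in Scm.

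**Figure D2:**
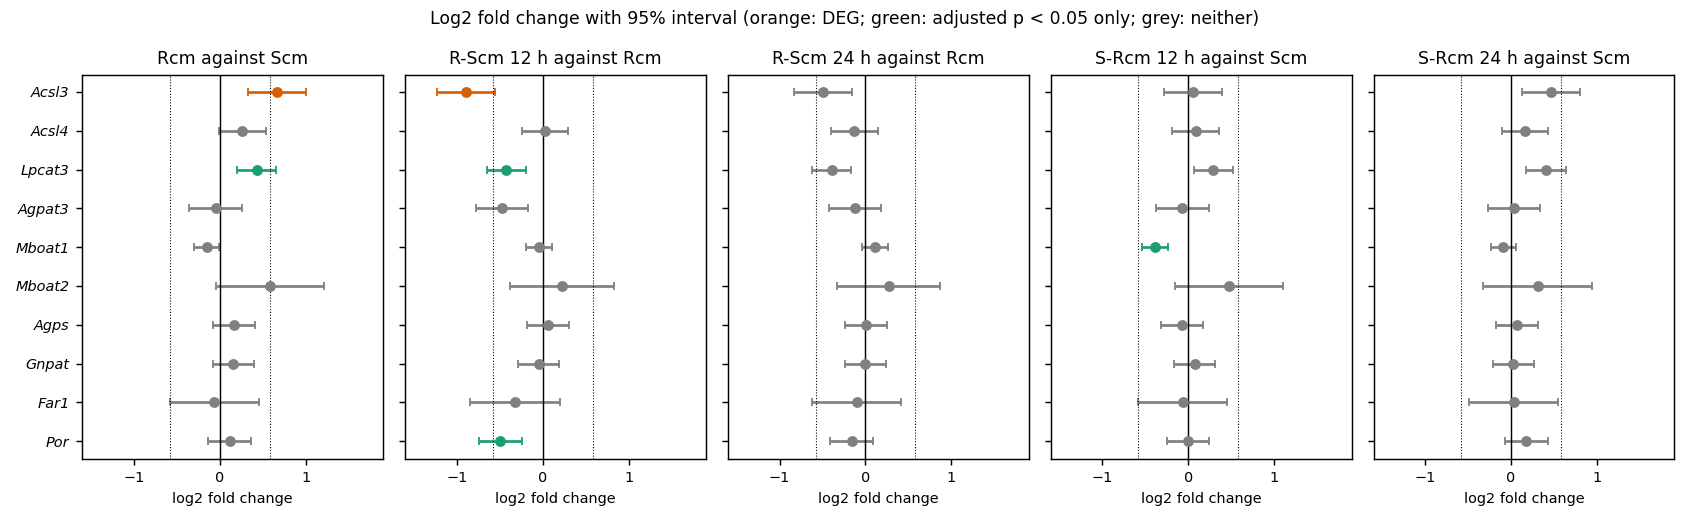
Log2 fold change (horizontal axes) of the 10 members in the 5 comparisons, with bars for the 95% interval. Dotted lines mark 0.58 and -0.58. Orange points are DEGs, green points have an adjusted p under 0.05 with a smaller fold change, and grey points have neither. Only Acsl3 is orange, at 0.66 for Rcm against Scm and at -0.89 for R-Scm 12 h against Rcm.

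Among the acyltransferases, Lpcat3 (ENSMUSG00000004270, chr6:124663027-124704418, plus strand) gave the closest counterpart to Acsl3. It was 31.4, 32.7 and 30.6 CPM in Scm and 44.0, 42.1 and 41.3 CPM in Rcm, without overlap. The log2 fold change was 0.43 (SE 0.11, adjusted p = 0.0417), below the fold change of a DEG. In all 6 fits with a library left out the adjusted p was above 0.05, from 0.0527 to 0.158. With the adjusted p as the only threshold, 2 members passed between Rcm and Scm, Acsl3 and Lpcat3, against 2.87% of all genes.

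Lpcat3 was 29.2, 31.6 and 34.1 CPM in R-Scm 12 h. Each value was below each Rcm library and the range covered that of Scm. Its log2 fold change was -0.43 against Rcm (SE 0.11, adjusted p = 0.0333) and 0.0027 against Scm (adjusted p = 0.991). An adjusted p under 0.05 against Rcm was kept in 1 of 6 fits with a library left out. It was 37.9, 30.6 and 28.6 CPM in R-Scm 24 h, or -0.39 on the log2 scale against Rcm (adjusted p = 0.13).

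In the exchange into Rcm, Lpcat3 was 37.2, 41.3 and 37.5 CPM at 12 h and 43.8, 37.5 and 44.2 CPM at 24 h. All 6 values were above those of Scm, with log2 fold changes of 0.29 (adjusted p = 0.215) and 0.40 (adjusted p = 0.153). Neither passed the test. Exons of Emg1 on the opposite strand overlap 334 exon bases of Lpcat3, 10.2% of its exon length, and since the use of strand in counting is not given in the sources used here, reads there cannot be assigned to either gene.

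Mboat1 (ENSMUSG00000038732, chr13:30136489-30246717, plus strand) had the highest mean level per kilobase of exon of the 10 members in all 6 groups, from 29.3 to 38.4 CPM per kilobase across groups. It was 138, 138 and 146 CPM in Scm and 113, 107 and 102 CPM in S-Rcm 12 h, with no overlap between the libraries. This was a log2 fold change of -0.39 (SE 0.071, adjusted p = 0.0117), below the fold change of a DEG, and Mboat1 was the 1 member past the adjusted p alone in that comparison (1.25% of all genes). An adjusted p under 0.05 was kept in 3 of 6 fits with a library left out, with adjusted p up to 0.0758.

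By 24 h in Rcm, Mboat1 was 139.7, 127 and 129 CPM, overlapping Scm, or -0.09 on the log2 scale (adjusted p = 0.848). Between 12 h and 24 h the log2 fold change was 0.30 (adjusted p = 0.107). It was 130.4, 126 and 122 CPM in Rcm, 127, 118 and 122 CPM in R-Scm 12 h and 132, 135 and 142 CPM in R-Scm 24 h. Between Rcm and Scm the log2 fold change was -0.15 (adjusted p = 0.291), and against Rcm it was -0.04 and 0.11 in R-Scm at 12 h and 24 h.

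Mboat2, which encodes a related acyltransferase (ENSMUSG00000020646, chr12:24830879-24964397, plus strand), was the lowest member, with 33 to 106 counts and 1.76 to 6.24 CPM per library. Its largest difference among the 5 comparisons was 0.59 on the log2 scale, between Rcm and Scm (SE 0.30, adjusted p = 0.344), with a 95% interval of -0.042 to 1.22. Its level was 6.24, 3.4 and 3.46 CPM at 24 h in Scm, with the highest value of all libraries in replicate 1. The interval for Rcm against Scm covers both 0 and the value of 0.66 measured for Acsl3. Against Scm, the log2 fold change of Mboat2 was 0.81 in R-Scm 12 h, with a 95% interval of 0.19 to 1.44 (edgeR adjusted p = 0.104). It was 0.86 in R-Scm 24 h, with an interval of 0.23 to 1.48 (edgeR adjusted p = 0.301), and neither was a DEG.

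Agpat3 (ENSMUSG00000001211, chr10:78269178-78352489, minus strand) was 123, 124 and 122 CPM in Scm and 109.6, 106 and 142 CPM in Rcm, with Rcm replicate 3 above and the other Rcm libraries below Scm. It was 97.9, 84.1 and 75.5 CPM in R-Scm 12 h, below all libraries of Rcm and of Scm. Its log2 fold change was -0.47 against Rcm (SE 0.14, adjusted p = 0.078) and -0.52 against Scm (SE 0.15, adjusted p = 0.0379), neither a DEG. At 24 h its level was 92.3, 104 and 131 CPM, overlapping Rcm and Scm, at -0.12 on the log2 scale against Rcm (adjusted p = 0.84).

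The enzymes of ether lipid synthesis gave no DEG in any of the 5 comparisons, and their lowest adjusted p was 0.49, for Agps in Rcm against Scm. Agps (ENSMUSG00000042410, chr2:75832177-75931350, plus strand) was 168, 146 and 154 CPM in Scm and 183, 195 and 149 CPM in Rcm. The groups overlapped through Rcm replicate 3, and the log2 fold change was 0.17, with a 95% interval of -0.077 to 0.41. Gnpat (ENSMUSG00000031985, chr8:124863033-124890057, plus strand) was 56.4, 53.1 and 57.0 CPM in Scm and 58.7, 63.1 and 63.8 CPM in Rcm. These libraries did not overlap, at a log2 fold change of 0.16 and an interval of -0.08 to 0.39. The 6 group means of Gnpat lay within 1.12-fold of each other, the smallest spread of the 10 members. Exons of Gm16163 on the same strand cover 7.81% of the exon length of Gnpat, so the split of its reads is uncertain.

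Far1 (ENSMUSG00000030759, chr7:113513834-113571511, plus strand) varied more between the libraries of Rcm than any other member within a group. Its values there were 44.4, 74.3 and 27.7 CPM, a coefficient of variation of 48.4%, whereas Scm gave 52.9, 46.1 and 53.5 CPM. Between Rcm and Scm the log2 fold change was -0.06, with an interval of -0.58 to 0.45. It was 39.7, 43.3 and 33.9 CPM in R-Scm 12 h, and between 40.1 and 60.4 CPM in the S-Rcm libraries. Far1 had no adjusted p under 0.05 in any of the 13 comparisons.

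Por (ENSMUSG00000005514, chr5:135670033-135735326, plus strand), the electron donor, was 98.5, 106 and 107 CPM in Scm and 94.4, 113 and 131 CPM in Rcm. The groups overlapped, and the log2 fold change was 0.11 (adjusted p = 0.65). In R-Scm 12 h its level was 78.4, 90.4 and 71.3 CPM, below all libraries of Rcm and Scm. The log2 fold change against Rcm was -0.49 (SE 0.12, adjusted p = 0.024), below the fold change of a DEG, and against Scm it was -0.38 (adjusted p = 0.0594). Without Rcm replicate 1 or without R-Scm 12 h replicate 2, the value against Rcm was -0.60 or -0.59 and met both thresholds, whereas in the other 4 fits with a library left out the adjusted p was above 0.05.

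Por was 93.3, 94.6 and 114 CPM in R-Scm 24 h, at -0.16 on the log2 scale against Rcm (adjusted p = 0.70). It was 104, 106 and 102 CPM in S-Rcm 12 h and 108, 125 and 121 CPM in S-Rcm 24 h, with log2 fold changes against Scm of -8.9e-04 (adjusted p = 0.999) and 0.18 (adjusted p = 0.784). With the adjusted p as the only threshold, the members past it in R-Scm 12 h against Rcm were Acsl3, Lpcat3 and Por, or 3 of 10, against 4.19% of all genes.

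**Figure D3:**
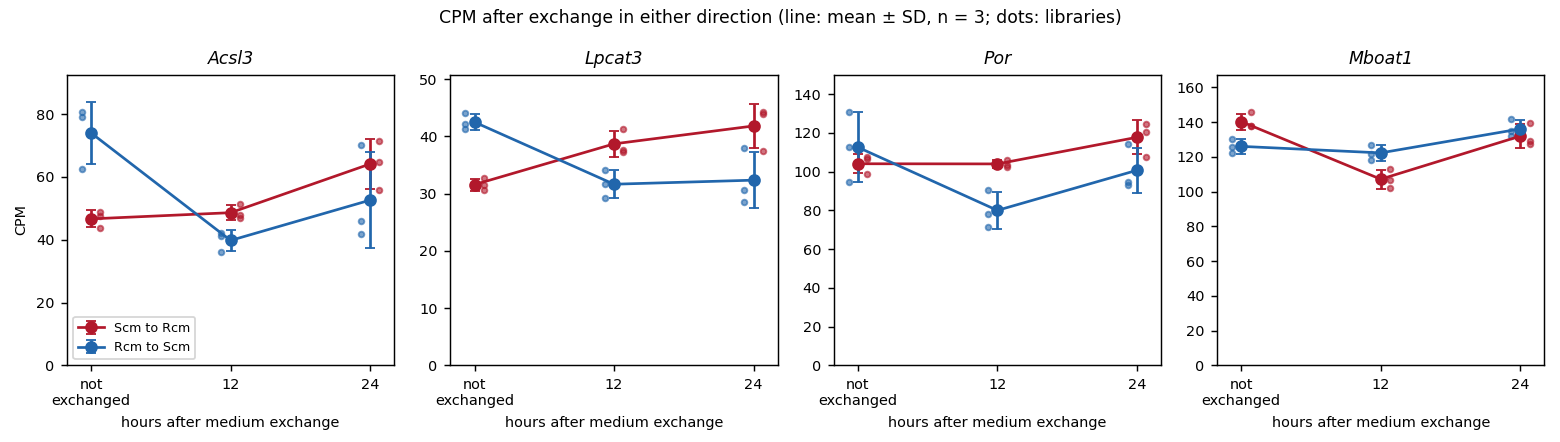
CPM (vertical axes, from 0) of Acsl3, Lpcat3, Por and Mboat1 in cultures not exchanged and at 12 h and 24 h after the exchange (horizontal axes). Lines join means with SD of 3 libraries, red from Scm to Rcm and blue from Rcm to Scm, and small dots are libraries. The mean of Acsl3 was 39.8 CPM at 12 h in Scm against 74.0 CPM in Rcm, and 48.6 CPM at 12 h in Rcm against 46.6 CPM in Scm.

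The groups did not overlap for 4 members in Rcm against Scm (23.9% of all genes), for 4 in R-Scm 12 h against Rcm (23.4%) and for 2 in R-Scm 24 h against Rcm (11.2%). They did not overlap for 3 members in S-Rcm 12 h against Scm (26.4%) and for 3 in S-Rcm 24 h against Scm (19.5%). Against the culture in the same serum, R-Scm 12 h and Scm did not overlap for 8 of 10 members (36.8% of all genes). With both thresholds of a DEG, 0 members were called in that comparison, against 4.4% of all genes, and DESeq2 also called 0. An unadjusted p under 0.05 was found for 5 members, against 25.0% of all genes. With the adjusted p alone Agpat3 passed, against 7.46% of all genes. The comparisons of R-Scm and of Rcm with Scm share libraries, so their values are given side by side only.

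In edgeR's test no member was a DEG in the remaining comparisons with the culture in the same serum, which were R-Scm 24 h against Scm (0.592% of all genes), S-Rcm 12 h against Rcm (0.871%) and S-Rcm 24 h against Rcm (0.221%), with 1, 3 and 0 members at an unadjusted p under 0.05 (10.1%, 15.4% and 7.48% of all genes). The closest was Acsl3 in S-Rcm 12 h against Rcm, with a log2 fold change of -0.60 (SE 0.16, adjusted p = 0.0793). With DESeq2 in place of edgeR, with a replicate block by the numbers of the count columns, or without Rcm replicate 3, Acsl3 was a DEG there. No member was a DEG between 24 h and 12 h in R-Scm (0.774%) or in S-Rcm (0.156%), by edgeR or by DESeq2, with 4 and 2 members at an unadjusted p under 0.05 (13.6% and 9.26% of all genes). Acsl3 had log2 fold changes of 0.40 (adjusted p = 0.27) and 0.40 (adjusted p = 0.434) in these comparisons.

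Whether both exchanges mirrored each other was tested by the sum of their log2 fold changes, each against the group it had left, which is 0 for opposite and equal changes. At 12 h the sum was -0.83 for Acsl3 (SE 0.23, adjusted p = 0.0508), above the threshold, and it was called with a replicate block by the numbers in the titles, with DESeq2, with only the groups compared and without Rcm replicate 3. It was -0.43 for Mboat1 (SE 0.10, adjusted p = 0.0236), the 1 member past the adjusted p alone (3.58% of all genes), and the sum stood below the fold change of a DEG. With a library left out, its adjusted p stayed under 0.05 in 6 of 12 fits. It was -0.13 for Lpcat3 (adjusted p = 0.707). As a DEG, 0 members were called at 12 h against 3.09% of all genes, and 0 at 24 h against 0.039%, with 4 and 0 members at an unadjusted p under 0.05 (18.1% and 5.74% of all genes). At 24 h the sum for Acsl3 was -0.03, with an interval of -0.51 to 0.44.

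The other genes of the same pathways were taken from a list of 42, of which 37 were tested. In Rcm against Scm 1 of 37 was a DEG (2.3% of all genes), in R-Scm 0 at 12 h (2.74%) and 0 at 24 h (0.377%), and in S-Rcm 3 at 12 h (0.858%) and 1 at 24 h (0.338%). Where 0 were called, in R-Scm, 8 and 2 had an unadjusted p under 0.05, against 17.6% and 10.3% of all genes. The DEGs were 3 genes, Slc27a1, Acsbg1 and Cyb5a. By class, they were found among 5 tested genes of acyl-CoA activation and 7 of lipid peroxidation, and no DEG was found in these comparisons among 10 tested genes of lysophospholipid acylation, 10 of ether lipid synthesis and peroxisomal import and 5 phospholipases A2.

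Slc27a1, the fatty acid transport protein with acyl-CoA synthetase activity, was 103, 109 and 97.6 CPM in Scm. It was 65.9, 61.5 and 70.4 CPM in Rcm, 68.1, 58.2 and 61.3 CPM in S-Rcm 12 h and 50.5, 63.4 and 64.4 CPM in S-Rcm 24 h. Each of these 9 libraries lay below each library of Scm. Against Scm it fell by 0.65 on the log2 scale in Rcm (SE 0.11, adjusted p = 0.00325), by 0.73 in S-Rcm 12 h (adjusted p = 0.00415) and by 0.80 in S-Rcm 24 h (adjusted p = 0.00478), and each of these calls held in 6 of 6 fits with a library left out. In the exchange into Scm it was 66.3, 65.9 and 77.8 CPM at 12 h and 65.4, 74.6 and 80.2 CPM at 24 h, with log2 fold changes against Rcm of 0.09 (adjusted p = 0.753) and 0.15 (adjusted p = 0.696).

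Acsbg1, an acyl-CoA synthetase of the bubblegum family, was 2.99, 3.39 and 3.09 CPM in Scm and 8.97, 8.62 and 10.1 CPM in S-Rcm 12 h. It rose 2.92-fold (log2 fold change 1.54, SE 0.26, adjusted p = 0.00824), from 45 to 56 counts per library in Scm to 154 to 172 counts. This call held in 4 of 6 fits with a library left out and was lost without Scm replicate 1 (adjusted p = 0.0576) or Scm replicate 3 (adjusted p = 0.0503). It was 4.09, 4.86 and 5.05 CPM in S-Rcm 24 h, above each Scm library but not a DEG (log2 fold change 0.56, adjusted p = 0.618). It was 6.23, 6.99 and 6.13 CPM in R-Scm 12 h and 3.74, 4.59 and 3.76 CPM in Rcm, with no overlap between these and a difference of 0.68 on the log2 scale (adjusted p = 0.16).

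Cyb5a, the microsomal cytochrome b5 that carries electrons for lipid desaturation and for P450 reactions, was 44.7, 48.0 and 42.9 CPM in Scm and 86.6, 78.5 and 88.4 CPM in S-Rcm 12 h. It rose by 0.90 on the log2 scale (SE 0.15, adjusted p = 0.00539), with no overlap, and this call held in 6 of 6 fits with a library left out. It was 62.4, 55.1 and 66.3 CPM in S-Rcm 24 h, above Scm but not a DEG (log2 fold change 0.44, adjusted p = 0.313). It was 72.0, 61.4 and 62.5 CPM in R-Scm 12 h and 32.3, 38.0 and 39.1 CPM in R-Scm 24 h, and between these times it fell by 0.84 on the log2 scale (SE 0.15, adjusted p = 0.00962), a call that was lost with only the groups compared (adjusted p = 0.127). In Rcm it was 42.4, 40.7 and 64.5 CPM, with replicate 3 above the other Rcm libraries. The log2 fold change in R-Scm 12 h against Rcm was 0.41 (adjusted p = 0.13), and without Rcm replicate 3 it was 0.66 (adjusted p = 0.00583) and met both thresholds of a DEG.

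**Figure D4:**
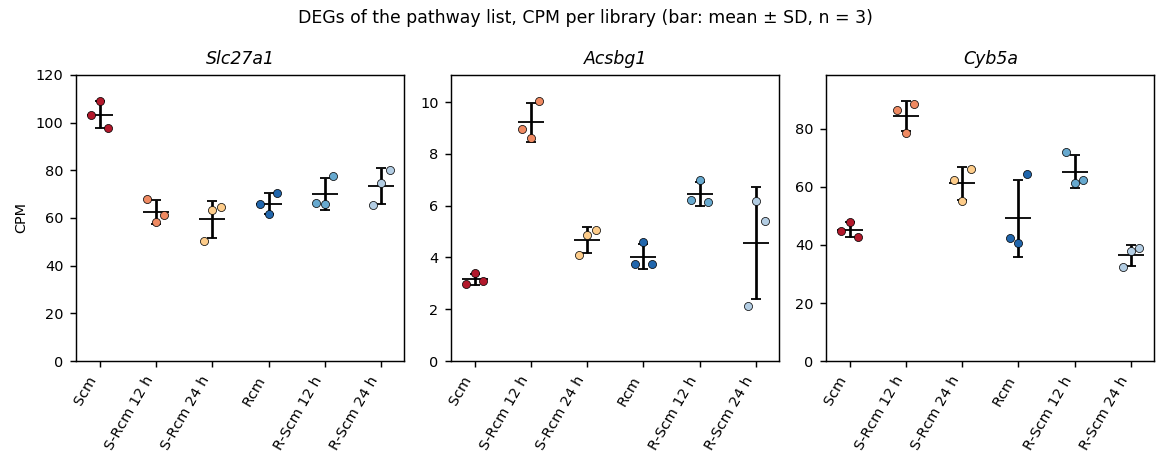
CPM (vertical axes, from 0) of Slc27a1, Acsbg1 and Cyb5a in each library of the 6 groups (horizontal axes). Points are libraries and black bars are the mean ± SD of 3 libraries. Slc27a1 lay between 97.6 and 109 CPM in Scm and did not exceed 80.2 CPM in any other library.

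In the lipid peroxidation class of the list, 7 genes had enough counts to be tested, among them Aloxe3 and Nox4. Several others were at the limit of detection. Alox15, the gene of a lipoxygenase, had 0 counts in 18 of 18 libraries, which allows up to 0.148 to 0.206 CPM per library (3 counts of the total, counting error only). Alox5, another lipoxygenase gene, had at most 2 counts, Nox1, the gene of an NADPH oxidase, at most 3, and Alox12 at most 6. These genes and Acsl6, with at most 7 counts, were not tested.

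Over the 18 libraries, log2 CPM of Acsl3 and Lpcat3 had a Pearson correlation of 0.76, those of Acsl4 and Agps of 0.81 and those of Agpat3 and Por of 0.85, the highest value among the pairs of members. The lowest was -0.66, between Agpat3 and Agps, and Acsl3 and Acsl4 had 0.18. These are descriptions of libraries that share groups and normalization. The genes whose levels were most like those of Acsl3 were Gm13502 (r = 0.97), Stard4 (r = 0.96), which encodes a sterol transfer protein, and Idi1 (r = 0.95), which encodes isopentenyl-diphosphate isomerase of the mevalonate pathway. Gm13502 is a processed pseudogene identical to Idi1 over 684 bases, so its reads may belong to Idi1.

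Those most like Por, the one member of the lipid peroxidation class, were Ltbp3 (r = 0.92), Csnk1g2 (r = 0.89) and Lig1 (r = 0.88). Those most like Mboat2, the member acyltransferase with the largest fold change, were Timp3 (r = 0.81), Satb1 (r = 0.80) and Lama4 (r = 0.79). Far1 had the largest fold change among the member ether lipid enzymes, -0.32 on the log2 scale in R-Scm 12 h against Rcm (edgeR adjusted p = 0.554). The genes most like it were Gm19610 (r = 0.75), Slc30a7 (r = 0.73) and Fzd3 (r = 0.73). Gm19610 is annotated as antisense to Ereg and is identical to it over 141 bases, so its reads may belong to Ereg. The correlations for Far1 were the lowest of the 4 members compared in this way, and each was taken over 18 libraries and 15381 genes.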

How the data were processed

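RNA-seq was made from 18 libraries of MEFs, which were grouped by their titles and descriptions. The authors extracted total RNA with the RNeasy mini kit, made paired-end mRNA libraries, aligned the reads with HISAT2 2.0.5 to GRCm38 (the build in the submitters' processing notes) and deposited raw counts, whole numbers of reads per gene without normalization. The counting tool and its use of strand are not given in the sources used here. Of 55487 genes, 40106 were removed by edgeR's filterByExpr. Counts were scaled by TMM factors of 0.963 to 1.03, and edgeR's quasi-likelihood model, with dispersion estimated robustly, took in all libraries (12 residual degrees of freedom, biological coefficient of variation 0.173). Contrasts were the 5 comparisons of the study, 4 against the culture in the serum of destination, 2 between times and 2 sums of both exchanges. The study used DESeq2 with the same thresholds, which was run as an alternative. Total counts of 14534906 to 20313715 per library set the precision. Exact permutation of 3 against 3 libraries, whose smallest p is 0.1, was not used. Log2 CPM used a prior count of 2.

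Members were chosen by name, and the members and lists were chosen with earlier results of these data known. The text carries results for members called in any of the 5 comparisons, Acsl4, Lpcat3 and Por, summarises the other members, names listed pathway genes that were DEGs in any of the 5, and gives the 3 genes most like the member with the largest fold change in each of 4 role classes. Positions and overlaps came from GENCODE M21 on GRCm38, which is another annotation release than the study's on the same build, and copies were sought with blastn 2.17.0. Promoters came from RefSeq on GRCm38.p6, and 10 of 10 members matched. Alternatives were RLE scaling, removal of the filter, a minimum of 10 counts in each library, the adjusted p alone, a replicate block, only the groups compared, DESeq2 and each library left out, plus the removal of 2 libraries together and a block by the numbers of the count columns, both chosen after seeing the data. The code was run on counts simulated from the model's own dispersions, which cannot show how well the model holds for these libraries. The number of count columns left out was 0. Tools were edgeR 4.0.16 and DESeq2 1.42.0 under R 4.3.3, and matplotlib 3.10.9 under Python 3.11.15.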

Additional observations from a re-analysis of the deposited data

Results flagged for a closer look

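The 12 h sum of the log2 fold changes of both exchanges, each against the group it had left, differed from 0 at an adjusted p under 0.05 for 1 member, so the changes in both exchanges were not equal and opposite for it. It was -0.43 for Mboat1 (SE 0.10, adjusted p = 0.0236). In the list of other pathway genes the sum was 2.23 for Acsbg1 (adjusted p = 0.00279), 1.31 for Cyb5a (adjusted p = 0.00178), -0.64 for Slc27a1 (adjusted p = 0.0319) and -0.36 for Cyb5b (adjusted p = 0.0365), which encodes the outer mitochondrial cytochrome b5. The mean levels of Acsbg1 and Cyb5a were higher after 12 h in either new serum than in the culture left, and only the rise in S-Rcm 12 h passed the test of a DEG. With a library left out, the adjusted p of the sum stayed under 0.05 in 12 of 12 fits for Acsbg1 and for Cyb5a, in 6 for Mboat1, in 3 for Slc27a1 and in 1 for Cyb5b. Between 12 h and 24 h in R-Scm the effect differed for Cyb5a, by -0.84 on the log2 scale (adjusted p = 0.00962, and 0.127 with only the groups compared). Adjusted p are from edgeR's quasi-likelihood test over all genes. No cultures exchanged into fresh medium of their own serum were among the libraries, so the exchange and the serum cannot be told apart.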

How the results depend on the processing

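Across 13 comparisons the number of members called as DEGs moved under the following settings. With the adjusted p alone it was 2 in Rcm against Scm, 3 in R-Scm 12 h against Rcm, and 1 each in S-Rcm 12 h against Scm (Mboat1), R-Scm 12 h against Scm (Agpat3) and the 12 h sum (Mboat1), by construction, since a threshold was removed. With DESeq2 it was 1 in S-Rcm 12 h against Rcm and 1 in the 12 h sum, and with only the groups compared it was 1 in the 12 h sum, all Acsl3. With each library left out in turn it ran from 0 to 1 in Rcm against Scm, from 1 to 2 in R-Scm 12 h against Rcm, and from 0 to 1 in R-Scm 24 h against Rcm, R-Scm 12 h against Scm, S-Rcm 12 h against Rcm and the 12 h sum. Without Rcm replicate 3 and R-Scm 24 h replicate 1 together, Acsl3 alone was called, 1 member each, in R-Scm 24 h against Rcm (log2 fold change -0.86, adjusted p = 8.28e-04), S-Rcm 12 h against Rcm and the 12 h sum. For the other pathway genes, the number of DEGs in Rcm against Scm ran from 1 to 2 with each library left out and was 2 (Slc27a1 and Peds1, the latter named after its values were seen) without both libraries. In R-Scm 12 h against Rcm it was 1 with the adjusted p alone (Cyb5b), ran from 0 to 1 with each library left out and was 2 (Acsbg1 and Cyb5a) without both. The log2 fold change of Cyb5a in Rcm against Scm, 0.12, ran from -0.13 to 0.24 with each library left out and was -0.13 without both, and that of Acsbg1 in R-Scm 24 h against Rcm ran from -0.085 to 0.52. Apart from the effect of removed thresholds or samples, the cause was not tested.

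With the replicate block by the numbers in the titles, 1 member was called in the 12 h sum (Acsl3), where 0 were called without it, and the block changed no other call on a member. No clear pairing by these numbers was seen, though the check cannot settle it. Libraries with the same number had a median correlation of deviations of -0.019 (-0.20 to 0.35), against 0.0023 (-0.27 to 0.21) for different numbers. Of 18 libraries, 8 correlated best with their own number. The count columns of 3 of 6 groups (S-Rcm 24 h, R-Scm 12 h and R-Scm 24 h) carry the numbers 1, 3 and 4 where the titles have 1, 2 and 3. By column number the median correlation was -0.023 (-0.21 to 0.17) and 3 of 18 libraries correlated best with their own number. A replicate block by column number, chosen after seeing the data, called 1 member in R-Scm 12 h against Scm (Agpat3), 1 in S-Rcm 12 h against Rcm (Acsl3) and 0 in the 12 h sum. It turned Gnpat to 0.015 and 0.063 in R-Scm at 12 h and 24 h against Rcm, Far1 to 0.18 in R-Scm 24 h against Rcm, Por to 0.0016 in S-Rcm 12 h and Agpat3 to -0.048 in S-Rcm 24 h against Scm, and Slc27a1 to -0.0036 in R-Scm 12 h against Rcm.

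Of 730 values of single members under the alternatives, 667 kept their direction and side of the thresholds, 8 came to pass them, 5 no longer passed them and 50 changed sign, none of the last a DEG. For Gnpat in R-Scm 24 h against Rcm these were 0.015 with RLE scaling, 0.0043 with no filter, 0.0065 with at least 10 counts, 2.7e-04 with only the groups compared and 0.017 with DESeq2. For Por in S-Rcm 12 h against Scm the block by title number gave 0.0014. Without Rcm replicate 3 and R-Scm 24 h replicate 1 together, Far1 was 0.21 and Por -0.019 in Rcm against Scm, Acsl4 -0.083 and Agps -0.045 in R-Scm 12 h against Rcm, and Agpat3 0.13, Mboat2 -0.098, Agps -0.040 and Por 0.015 in R-Scm 24 h against Rcm. With each library left out, the ranges that crossed 0 in Rcm against Scm were -0.21 to 0.029 for Agpat3, -0.50 to 0.21 for Far1 and -0.019 to 0.23 for Por. In R-Scm 12 h against Rcm they were -0.083 to 0.095 for Acsl4, -0.045 to 0.14 for Agps, -0.11 to 0.021 for Gnpat and -0.60 to 0.12 for Far1. In R-Scm 24 h against Rcm they were -0.26 to 0.029 for Agpat3, -0.076 to 0.45 for Mboat2, -0.087 to 0.090 for Agps, -0.046 to 0.062 for Gnpat and -0.38 to 0.34 for Far1, and for Por they were -0.27 to -0.032 without crossing 0. In S-Rcm 12 h against Scm they were -0.041 to 0.18 for Acsl4, -0.20 to 0.057 for Far1 and -0.039 to 0.022 for Por. In S-Rcm 24 h against Scm they were -0.062 to 0.15 for Agpat3, -0.053 to 0.15 for Agps, -0.15 to 0.11 for Gnpat and -0.090 to 0.14 for Far1. Depth limits Mboat2, with as few as 33 counts per library.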
